A study of Gallus gallus with 4 samples.

Results

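Cell junction genes were followed through embryonic chicken feathers in single-cell and single-nucleus RNA sequencing. The members were all genes whose deposited symbol names a claudin (CLDN), a connexin (GJA, GJB, GJC or GJD), a desmoglein, desmocollin or plakophilin (DSG, DSC, PKP), a zonula occludens protein (TJP), or DSP, JUP or OCLN. The rule found 37 of 16878 genes, which were 12 claudins, 15 connexins, 3 plakophilins, 3 zonula occludens genes, 1 desmoglein, and DSP, JUP and OCLN. No desmocollin was analysed here. Of the 37, 17 reached 20 counts per 1000000 (CPM) in epithelial, fibroblast or endothelial barcodes of at least 1 library, and 15 of these are described with values. The other 20 stayed at or below 18.2 CPM in those classes, where CLDN14 and GJD2 had 0 counts in every library.

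All embryos were white leghorn chickens, and each of the 4 groups was 1 droplet library (10x Genomics). Feathers plucked at the dorsal midline gave whole cells at 12 days of incubation (Hamburger and Hamilton stage 38) and nuclei at 13 days (stage 39) and 14 days (stage 40). A tract of dorsal midline skin with its feathers in place gave the other library, whole cells at 12 days, called in-skin here. The labels give neither the number of embryos per library nor their sex, and with 1 library per group no difference has a replicate check, so no p-value is given.

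Tight junctions seal the space between neighbouring epithelial cells. Their claudin and occludin strands are anchored to actin by the zonula occludens scaffolds. Gap junctions are channels of connexins that let ions and small molecules pass from cell to cell. Desmosomes hold epithelial sheets together: desmoglein and desmocollin cadherins bind JUP and the plakophilins inside the cell, and these bind DSP, which holds the keratin filaments. Skin and its appendages use all 3 junction types, and blood vessels use their own claudins and connexins.

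After the filters, 6208 plucked day 12, 5411 in-skin, 19457 day 13 and 19435 day 14 barcodes remained, from deposited totals of 56504070 to 72385294 unique molecular identifiers (UMIs, each 1 captured transcript). Epithelial barcodes (at least 3 UMIs of GATA3 and KRT5, at most 5 of the collagens COL1A1 and COL1A2) numbered 3771, 1657, 2673 and 2954 in that order. Fibroblast barcodes (at least 5 collagen UMIs, at most 2 of GATA3 and KRT5) numbered 784, 2227, 447 and 365, and endothelial barcodes (at least 3 UMIs of CDH5, KDR and EGFL7) 51, 41, 129 and 143. Epithelial markers outside the gates summed to 2352 to 5465 CPM in epithelial barcodes and 426 to 1390 CPM in fibroblast barcodes. KRT75 was at 0 in epithelial nuclei of both ages. Fibroblast markers summed to 4986 to 10515 CPM in fibroblast barcodes and 123 to 488 CPM in epithelial barcodes. The day 13 endothelial barcodes went partly against their name, with 2642 CPM of epithelial markers and 795 CPM of endothelial ones. Those of day 12 were mixed too. In plucked feathers they had 832 CPM of epithelial, 1047 CPM of fibroblast and 1945 CPM of endothelial markers. In-skin these sums were 456, 667 and 1704 CPM. Leukocyte markers summed to 30.0 CPM in plucked and 335 CPM in in-skin endothelial barcodes. Kept barcode sequences shared between libraries numbered 12 to 110 per pair.

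Levels below are summed UMIs of a class, scaled to CPM over its UMIs other than globin and mitochondrial ones, so they compare a gene between classes, not genes with each other. A difference was called where the log2 ratio of (CPM + 10) was at least 1 in size, its exact Poisson 95% interval excluded 0, and 1 of the 2 groups had at least 20 CPM. Each interval of a ratio was formed from the outer ends of the Poisson 95% intervals of both groups, so it is wider than a 95% interval of the ratio. These intervals cover counting error only, and the added 10 CPM understates the ratio of low genes.

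**Figure D1:**
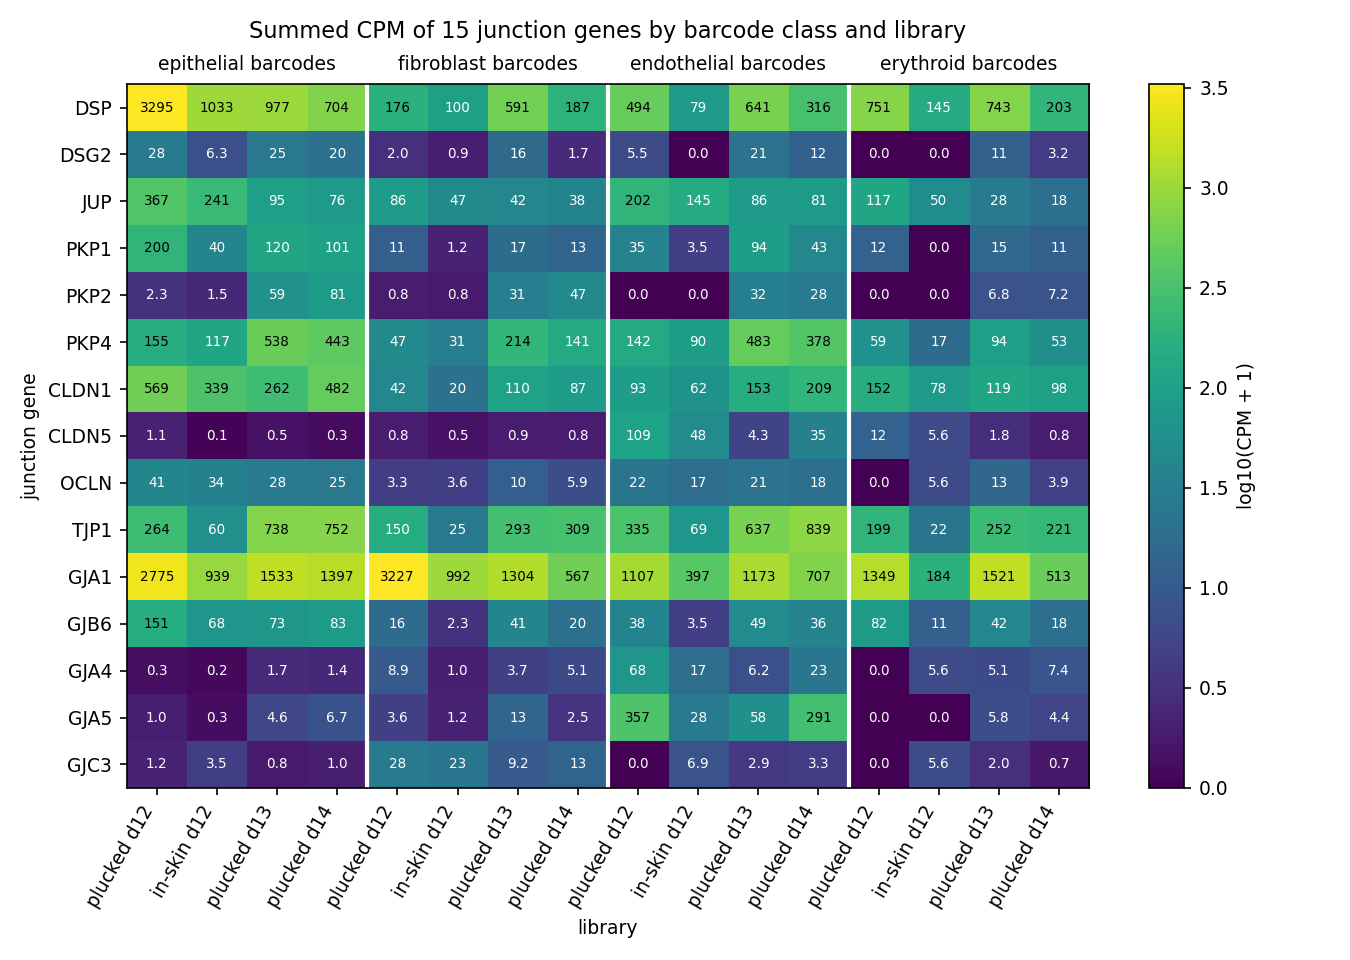
Summed CPM of the 15 described junction genes (rows) in epithelial, fibroblast, endothelial and erythroid barcodes of the 4 libraries (columns), coloured by log10(CPM + 1), with the CPM printed in each cell. DSP was 3295 CPM in plucked day 12 epithelial barcodes and 176 CPM in fibroblast barcodes, while GJA1 was above 500 CPM in all 4 classes of the plucked libraries.

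Epithelial and fibroblast barcodes were compared first, library by library. PKP4, CLDN1 and PKP1 were higher in epithelial barcodes in all 4 libraries. They were 3 of the 10 members that reached 20 CPM in every library, and 3.89% of all genes so tested were higher in all 4. In single libraries, the members called higher were 8 of 13 tested in plucked day 12 (9.86% of all genes), 8 of 11 in-skin (12%), 5 of 12 at day 13 (8.34%) and 9 of 12 at day 14 (11.4%). Of the members called in either direction, 6 of 10 in plucked day 12 and 6 of 9 in-skin had reached 20 CPM only in the higher group. At days 13 and 14 these were 1 of 5 and 3 of 9. PKP1 was among them in each library, and CLDN1 in-skin. For all of these members, passing the minimum already required a difference. No member was lower in epithelial barcodes in all 4 libraries, against 8.49% of all genes. With the trimmed-mean scaling (TMM) of edgeR, the higher share of all calls in plucked day 12 moved from 35.3% to 46.6%. Of the 13 members tested there, 9 were then past 2-fold on the higher side and 2 on the lower.

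Among the desmosome genes, DSP, the plakin that ties desmosomes to keratin, was 3295 CPM in epithelial and 176 CPM in fibroblast barcodes of plucked day 12 feathers. It was 1033 and 100 CPM in-skin, 977 and 591 CPM at day 13, and 704 and 187 CPM at day 14. The epithelial level was thus the higher in each library, and the day 13 levels lay closest together. The log2 ratios for DSP were 4.15 (95% interval 4.04 to 4.27), 3.25 (3.16 to 3.33), 0.72 (0.58 to 0.86, not called) and 1.86 (1.64 to 2.07).

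PKP1, a plakophilin of skin desmosomes in mammals, was 200 CPM in epithelial and 10.6 CPM in fibroblast barcodes of plucked day 12 feathers. Its epithelial and fibroblast levels were 39.7 and 1.16 CPM in-skin, 120 and 16.6 CPM at day 13, and 101 and 12.7 CPM at day 14. The log2 ratio for PKP1 ran from 2.16 in-skin to 3.35 in plucked day 12. PKP4, an armadillo protein found at desmosomes and adherens junctions, was 155 against 46.6 CPM, 117 against 30.9 CPM, 538 against 214 CPM and 443 against 141 CPM in the same order. Its log2 ratios, 1.29 to 1.63, covered the narrowest range of the members higher in all 4 libraries.

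JUP (plakoglobin, shared by desmosomes and adherens junctions) was 367 against 85.9 CPM in plucked day 12, 241 against 47.1 CPM in-skin, 95.2 against 41.6 CPM at day 13 and 76.0 against 38.1 CPM at day 14. The first 3 of these JUP differences were called, and the log2 ratio at day 14 was 0.84. The JUP call at day 13 lay near the limit. It ended, among others, with a mitochondrial limit of 20% (0.99) and with barcodes that pass more than 1 gate kept (0.97). DSG2, the desmosomal cadherin, was called higher in plucked day 12 (27.8 against 1.95 CPM) and at day 14 (20.1 against 1.69 CPM), but not at day 13. Several alternatives ended the day 14 call. Among them were CPM over all UMIs and epithelial gates of 2 and 5 UMIs, with log2 ratios of 1.25, 1.31 and 1.34. In-skin, DSG2 was under the minimum, at 6.32 and 0.944 CPM. PKP2, the plakophilin of heart and simple epithelia in mammals, was 59.4 and 80.6 CPM in epithelial nuclei of days 13 and 14 but 2.31 and 1.53 CPM in the day 12 epithelial cells. Age, nuclei in place of cells and the software version changed together between day 12 and the later days, and cannot be told apart for PKP2. Within the nuclear libraries the epithelial over fibroblast log2 ratios of PKP2 were 0.74 and 0.68, not called.

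Among the tight junction genes, CLDN1, the claudin needed for the skin water barrier in mice, was 569 CPM in epithelial and 41.5 CPM in fibroblast barcodes of plucked day 12. Its levels were 339 and 19.7 CPM in-skin, 262 and 110 CPM at day 13, and 482 and 87.2 CPM at day 14. The log2 ratios of CLDN1 were 3.49 (3.28 to 3.70), 3.55 (3.40 to 3.70), 1.18 (0.89 to 1.48) and 2.34 (2.05 to 2.64), so every library showed the higher level in epithelium. OCLN, the occludin strand protein, was 40.5 against 3.34 CPM, 33.9 against 3.56 CPM, 28.0 against 10.2 CPM and 24.8 against 5.93 CPM. OCLN was called higher in all libraries but day 13, where its log2 ratio was 0.91.

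TJP1, a scaffold of tight junctions, was called higher in epithelial nuclei at day 13 (738 against 293 CPM) and day 14 (752 against 309 CPM). In the day 12 cells, TJP1 was 264 against 150 CPM in plucked feathers and 59.9 against 25.2 CPM in-skin, with log2 ratios of 0.78 and 0.99.

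Of the connexins, GJB6, a connexin of mammalian epidermis, was 151 CPM in epithelial and 16.4 CPM in fibroblast barcodes of plucked day 12. Its levels were 68.5 and 2.25 CPM in-skin, 72.9 and 40.7 CPM at day 13, and 82.6 and 20.3 CPM at day 14. GJB6 was called higher in epithelium in all libraries but day 13, where the log2 ratio was 0.71 (0.27 to 1.16). GJA1, the most widely used connexin of vertebrate tissues, did not follow this pattern at day 12. It was 2775 CPM in epithelial and 3227 CPM in fibroblast barcodes of plucked day 12, and 939 and 992 CPM in-skin. The log2 ratios were -0.22 and -0.08 (0.03 and -0.09 with TMM scaling). GJA1 was 1533 and 1305 CPM at day 13, and was called only at day 14, at 1397 and 567 CPM (log2 ratio 1.29).

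The connexin gene deposited as GJC3 was on the fibroblast side, at 28.4 CPM in fibroblast and 1.17 CPM in epithelial barcodes of plucked day 12, and 22.8 and 3.51 CPM in-skin. The RefSeq gene table lists GJA7 and GJC1 as synonyms of this GJC3, so its mammalian counterpart is not certain. Members called lower in epithelial barcodes, GJC3 included, were 2 of 13 in plucked day 12 (18% of all genes) and 1 of 11 in-skin (14.7%). In the nuclei GJC3 did not reach 20 CPM in these classes, with fibroblast levels of 9.24 to 12.7 CPM.

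**Figure D2:**
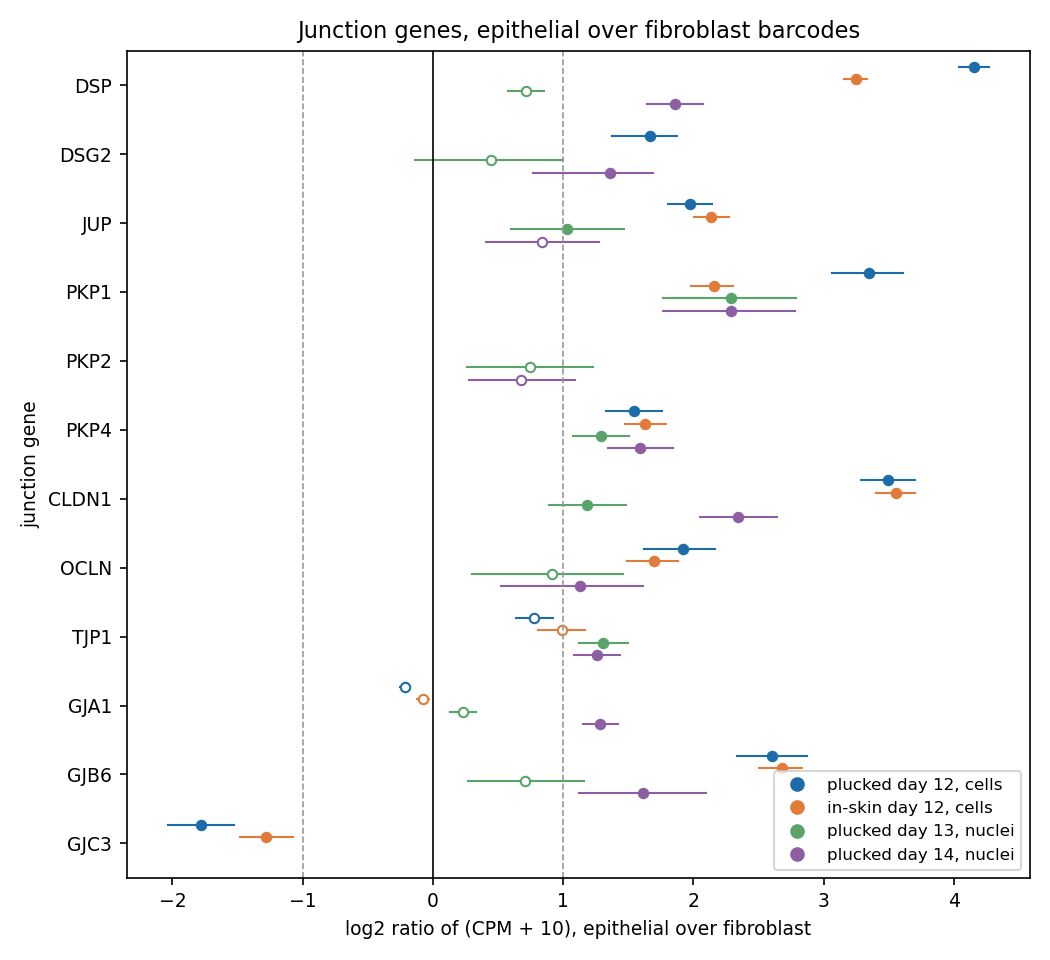
Log2 ratio of (CPM + 10) in epithelial over fibroblast barcodes for each described junction gene that reached 20 CPM, with Poisson 95% intervals as lines, filled points where called, and dashed lines at a 2-fold difference. PKP1, PKP4 and CLDN1 lie to the right of the 2-fold line in all 4 libraries, GJA1 lies near 0 at day 12 (-0.22 and -0.08, or 0.03 and -0.09 with TMM scaling), and GJC3 lies to the left.

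Erythroid barcodes, in which at least 50% of UMIs were globin and which passed no gate, served as the reference for free RNA, since red blood cells are not known to build these junctions. Whether free RNA alone gave their UMIs was not tested. In the day 13 nuclei, GJA1 was 1521 CPM in 6187 erythroid barcodes and 1533 CPM in epithelial barcodes. Each barcode was then thinned to 1000 UMIs other than globin and mitochondrial ones, and barcodes with fewer were left out. Of the barcodes that stayed, 75.5% of the erythroid and 75.0% of the epithelial ones had a GJA1 UMI. Unthinned shares were 82.4% and 95.6%, at median depths of 4869 and 3412 UMIs with globin counted. Globin made up 75.7% of the UMIs in erythroid and 16.4% in epithelial barcodes. Without globin and mitochondrial UMIs, the 6187 erythroid barcodes held 7603206 UMIs and the 2673 epithelial ones 10089180, so erythroid barcodes were the shallower. By CPM and by the thinned share, GJA1 in day 13 epithelial nuclei was thus no higher than in erythroid barcodes, while the mean was 5.79 UMIs per epithelial and 1.87 per erythroid barcode. DSP in the same library was 743 CPM in erythroid and 977 CPM in epithelial barcodes. The fibroblast level of DSP, 591 CPM, lay below the erythroid one.

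At day 14 the erythroid levels were lower, at 513 CPM for GJA1 and 203 CPM for DSP, against 1397 and 704 CPM in epithelial barcodes. The fibroblast levels at day 14, 567 CPM for GJA1 and 187 CPM for DSP, were close to the erythroid ones. PKP1 was 14.9 CPM in erythroid barcodes at day 13 and 11.2 CPM at day 14, against 120 and 101 CPM in epithelial nuclei. PKP4 was 94.4 and 53.3 CPM in erythroid against 538 and 443 CPM in epithelial nuclei. Members called higher in epithelial than erythroid barcodes were 7 of 12 at day 13 (29.5% of all genes), among them PKP1, PKP2, PKP4, CLDN1, JUP and TJP1, and 12 of 12 at day 14 (35.2%), where DSP, DSG2, GJA1, GJB6 and OCLN joined them. At day 12 they were 6 of 11 in plucked feathers (8.55%) and 9 of 11 in-skin (26.9%), from 118 and 153 erythroid barcodes. DSP, GJA1, PKP1, PKP4, CLDN1 and JUP were called in both day 12 libraries, and GJB6 and OCLN in-skin. Of these calls, 2 of 7, 6 of 12, 1 of 6 and 5 of 9 reached 20 CPM in epithelial barcodes alone, so passing the minimum already required a difference. With TMM scaling the GJA1 and DSP ratios at day 13 turned from 0.01 and 0.39 to -0.47 and -0.09, and the higher share of all calls in the nuclei moved from 64.4% to 43.2% at day 13 and from 62.5% to 44.1% at day 14.

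**Figure D3:**
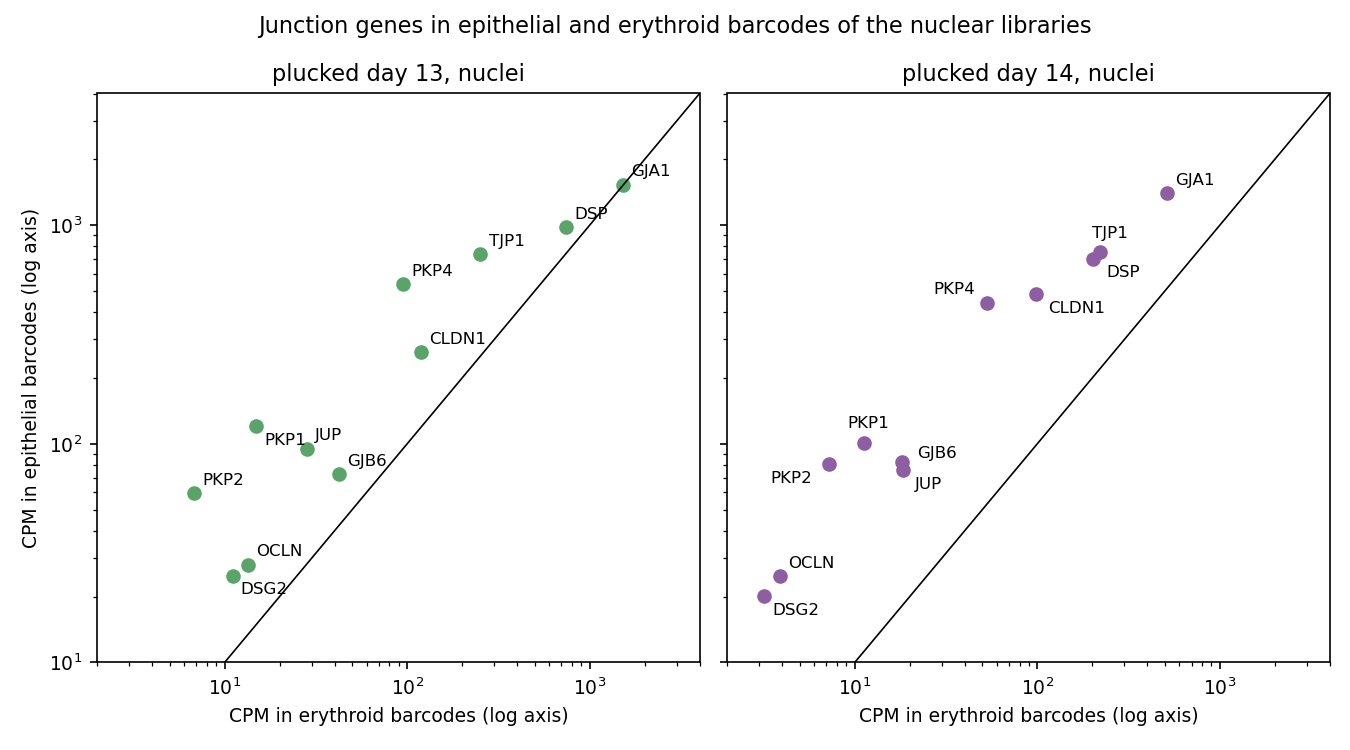
CPM of 11 junction genes in epithelial barcodes against erythroid barcodes, both on log axes, for the day 13 and day 14 nuclei; the line marks equal levels. GJA1 lies on the line at day 13 (1533 and 1521 CPM) and above it at day 14 (1397 and 513 CPM), while PKP1, PKP2 and PKP4 lie far above it in both.

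Endothelial barcodes were compared with epithelial ones next. GJA5, a connexin of arterial endothelium in mice, was 357 CPM in endothelial and 0.980 CPM in epithelial barcodes of plucked day 12. It was 27.6 and 0.296 CPM in-skin (8 endothelial UMIs), 57.7 and 4.56 CPM at day 13, and 291 and 6.69 CPM at day 14. GJA5 was thus higher in endothelium in all 4 libraries, the 1 member of 11 for which this held (3.33% of all genes). It reached 20 CPM in endothelial barcodes alone, as did CLDN5 and GJA4, so their passing the minimum already required a difference. In barcodes with at least 3 UMIs of pigment cell genes and no other gate, GJA5 was higher still in 3 libraries, at 1039, 534 and 129 CPM in plucked day 12, in-skin and day 13. The log2 ratios of GJA5 were 5.06 (4.77 to 5.34), 1.87 (1.04 to 2.67), 2.22 (1.85 to 2.57) and 4.17 (3.82 to 4.51). Few barcodes carried it: 7 of 51, 2 of 41, 25 of 129 and 15 of 143 endothelial barcodes had a GJA5 UMI, and 1 barcode held 47 of the 131 UMIs in plucked day 12. The call in all 4 libraries was lost with a 50 CPM minimum, a mitochondrial limit of 20% or with barcodes that pass more than 1 gate kept. The pigment cell gate was also passed by 19 of the 129 endothelial barcodes at day 13 and 3 of the 143 at day 14, which were not left out. Without them GJA5 was 99.7 CPM at day 13, from 17 of 110 barcodes, and 305 CPM at day 14, with log2 ratios of 2.91 and 4.24.

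CLDN5, the claudin of endothelial tight junctions in mice, was 109 CPM in plucked day 12, 48.4 CPM in-skin, 4.33 CPM at day 13 and 34.5 CPM at day 14 in endothelial barcodes. CLDN5 was at most 1.07 CPM in epithelial barcodes of any library, and was called in all but day 13. GJA4, another vascular connexin of mammals, was called higher in plucked day 12 (68.2 against 0.350 CPM) and at day 14 (23.0 against 1.45 CPM). In plucked day 12, 7 of 51 endothelial barcodes had a GJA4 UMI. A mitochondrial limit of 5% ended that call, at a log2 ratio of 0.72. The GJA4 call at day 14 ended with a 50 CPM minimum, or with barcodes that pass more than 1 gate kept (1.24).

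Members higher in endothelial barcodes were 4 of 15 in plucked day 12 (14.2% of all genes), 3 of 12 in-skin (13.7%), 1 of 13 at day 13 (4.41%) and 4 of 15 at day 14 (12.7%). Of the 10, 8, 1 and 9 calls in either direction, 5, 4, 1 and 3 had reached 20 CPM in the higher group alone. Members lower than in epithelium were 6 of 15 (10.1%), 5 of 12 (10.7%), 0 of 13 (1.23%) and 5 of 15 (6.82%). DSP, CLDN1, PKP1 and GJB6 were lower in endothelium in each library but day 13. DSP was 494 against 3295 CPM, 79.5 against 1033 CPM and 316 against 704 CPM in those libraries. GJA1 was lower at day 12, at 1107 against 2775 CPM and 397 against 939 CPM. DSG2 was lower in plucked day 12 (5.46 against 27.8 CPM, from 2 endothelial UMIs) and PKP2 at day 14 (28.0 against 80.6 CPM). The endothelial gate overlapped the others. In the plucked and in-skin day 12 libraries, 69 and 71 endothelial barcodes also passed the fibroblast gate, and 20 and 2 the epithelial gate. At days 13 and 14, 74 and 46 nuclei also passed the epithelial gate, and 5 and 2 the fibroblast gate. All of these were left out. Keeping them turned the in-skin GJA1 ratio from -1.22 to 0.58 and ended every lower call in plucked day 12, where the log2 ratios became -0.23 for DSP, -0.22 for GJA1, -0.16 for CLDN1, -0.62 for GJB6, -0.81 for PKP1 and -0.98 for DSG2. It also ended the lower calls at day 14, with ratios from -0.97 for PKP2 to -0.57 for DSP. In-skin, the lower calls of DSP, CLDN1, PKP1 and GJB6 were kept under that setting. There, endothelial barcodes held only 0.0635% of 1575 GJB6 UMIs and 0.111% of 897 PKP1 UMIs. A mitochondrial limit of 5% ended both of these in-skin calls, at -2.81 for GJB6 and -2.36 for PKP1. A 50 CPM minimum also ended the PKP1 call. The day 14 GJB6 call also ended with CPM over all UMIs (-0.93), mitochondrial limits of 5% and 20%, and epithelial gates of 2 and 5 UMIs.

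Plucked and in-skin feathers of day 12 were compared within each class. In epithelial barcodes, 6 of 11 members tested were higher in the plucked library (12.9% of all genes) and 0 were lower (2.04%). Of the 6, 1 (DSG2) had reached 20 CPM in the plucked library alone, so its passing the minimum already required a difference. The median of all genes was itself shifted by 0.22 on the log2 scale. PKP1 was 200 CPM in plucked and 39.7 CPM in-skin epithelium, a log2 ratio of 2.08 (1.97 to 2.19) and 1.86 above the median shift. TJP1 was 264 and 59.9 CPM (log2 ratio 1.97), DSP 3295 and 1033 CPM (1.66), and GJA1 2775 and 939 CPM (1.55). DSG2 was 27.8 and 6.32 CPM (1.21). GJB6 was 151 and 68.5 CPM (1.04), and with TMM scaling its ratio was 0.72 and no longer called.

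The other 5 members tested in epithelium had log2 ratios above 0 but under 1. CLDN1 was 569 and 339 CPM (0.73), JUP 367 and 241 CPM (0.58), PKP4 155 and 117 CPM (0.38), and OCLN 40.5 and 33.9 CPM (0.20). Relative to the median shift, PKP4 was at 0.16 and OCLN at -0.01, and with TMM scaling the OCLN ratio was -0.07. With TMM scaling, the higher share of all epithelial calls fell from 86.4% to 51.5%, while 5 members stayed past 2-fold on the higher side and 0 on the lower.

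The same direction was seen outside the epithelium. In fibroblast barcodes TJP1 was 150 and 25.2 CPM (log2 ratio 2.18) and GJA1 3227 and 992 CPM (1.69). They were among 4 of 9 members tested that were called higher, against 18% of all genes, and the median shift was 0.38. Of these 4, 2 had reached 20 CPM in the plucked library alone. In endothelial barcodes 6 of 14 members were higher (7.72%), with GJA5 at 357 and 27.6 CPM, DSP at 494 and 79.5 CPM, TJP1 at 335 and 69.1 CPM, GJA1 at 1107 and 397 CPM, GJA4 at 68.2 and 17.3 CPM, and GJB6 at 38.2 and 3.46 CPM. Of these 6, 2 (GJA4 and GJB6) had reached 20 CPM in the plucked library alone. GJA5 rested on 131 and 8 UMIs, in 7 of 51 and 2 of 41 barcodes. Epithelial markers in the endothelial barcodes summed to 832 CPM in plucked and 456 CPM in in-skin feathers, and fibroblast markers to 1047 and 667 CPM. The part of these markers' cells in the endothelial differences was not tested. GJA1 and TJP1 were thus higher in the plucked library in all 3 gated classes. In erythroid barcodes GJA1 was 1349 and 184 CPM, DSP 751 and 145 CPM, and TJP1 199 and 22.3 CPM (17 and 4 UMIs). The erythroid levels thus moved the same way, from 118 and 153 barcodes. The part of free RNA in the result was not tested. The higher share of all calls moved from 87.7% to 40.8% in fibroblasts and from 82.8% to 53.0% in endothelium under TMM scaling. HINTW, a W-linked gene found in females, had 176270 kept UMIs in the plucked and 1 in the in-skin library. The in-skin tissue also included the skin around the feathers. Embryo sex, the tissue sampled and tissue handling thus cannot be told apart.

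Between day 13 and day 14, no member was called in epithelial nuclei, 0 of 12 against 4.87% of all genes in either direction. CLDN1 came nearest, at 262 CPM on day 13 and 482 CPM on day 14, a log2 ratio of 0.86 (0.77 to 0.95) where the median gene was at -0.19. With TMM scaling CLDN1 passed 2-fold, and the higher share of all calls moved from 47.1% to 75.6%. GJA1 was 1533 and 1397 CPM, PKP4 538 and 443 CPM, TJP1 738 and 752 CPM, and PKP1 120 and 101 CPM. The GJA1 and PKP1 ratios, -0.13 and -0.23, turned to 0.13 and 0.02 with TMM scaling. DSP was 977 and 704 CPM, with a log2 ratio of -0.47 (-0.53 to -0.41).

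In fibroblast nuclei DSP was 591 CPM at day 13 and 187 CPM at day 14 (log2 ratio -1.61), and GJA1 was 1305 and 567 CPM (-1.19). These were 2 of 9 members lower, against 3.04% of all genes. Erythroid barcodes moved the same way, from 743 to 203 CPM for DSP and from 1521 to 513 CPM for GJA1, and the part of free RNA was not tested. Endothelial nuclei showed 4 of 15 members higher at day 14 (7.12%): among them GJA5 at 57.7 and 291 CPM, CLDN5 at 4.33 and 34.5 CPM, and GJA4 at 6.25 and 23.0 CPM. Of the 4 calls, 2 (CLDN5 and GJA4) had reached 20 CPM at day 14 alone, so their passing the minimum already required a difference. The summed endothelial markers of the endothelial nuclei were 795 CPM at day 13 and 2612 CPM at day 14, and the epithelial ones 2642 and 949 CPM. Their part in the endothelial differences was not tested.

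**Figure D4:**
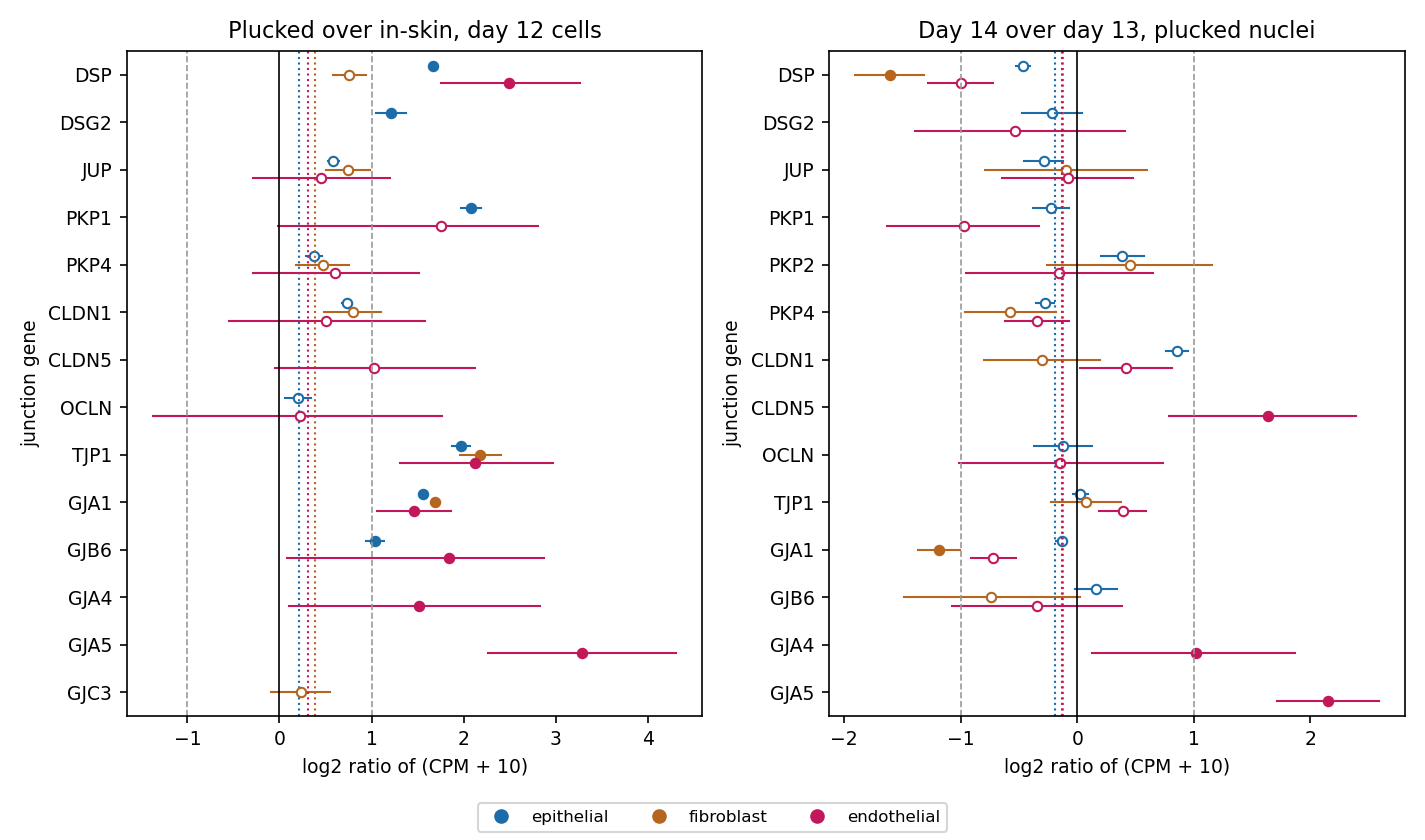
Log2 ratios of (CPM + 10) for plucked over in-skin day 12 cells and for day 14 over day 13 nuclei, by class, with Poisson 95% intervals, filled points where called, dashed lines at a 2-fold difference and dotted lines at the median of all genes tested. At day 12 every member shown has a ratio above 0 in all 3 classes (with TMM scaling, below 0 for OCLN in epithelium and for PKP4 and GJC3 in fibroblasts), while the day 14 epithelial ratios lie between -0.47 for DSP and 0.86 for CLDN1.

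Epithelial barcodes were then split by 3 marker genes: SHH, the signal made in the barb ridges of the growing feather, MSLN, a cell surface glycoprotein, and F-KER, a feather keratin. A barcode with at least 2 UMIs was positive, and one with 0 UMIs of all 3 was marker-negative, so all 3 comparisons share the marker-negative barcodes of a library. A barcode could be positive for more than 1 marker: 18 of the 24 MSLN-positive and 109 of the 181 SHH-positive nuclei at day 14 were also F-KER-positive, as were 10 of 36 and 125 of 420 at day 13, against 0 to 4 per pair of sets in the day 12 libraries. SHH-positive barcodes numbered 425 in plucked day 12, 334 in-skin, 420 at day 13 and 181 at day 14. MSLN-positive ones numbered 131, 25, 36 and 24, and F-KER-positive ones 226, 12, 575 and 1686. Marker-negative barcodes numbered 2511, 1159, 1024 and 541.

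MSLN-positive cells had the higher levels of several tight junction genes. CLDN1 was 2047 CPM in MSLN-positive and 528 CPM in marker-negative barcodes of plucked day 12, and 1790 and 349 CPM in-skin. CLDN3, a claudin of simple epithelia in mammals, was 113 and 7.24 CPM in plucked day 12 and 91.3 and 13.6 CPM in-skin. OCLN was 105 and 39.3 CPM, and 125 and 36.3 CPM. DSP, the desmosome gene, was 8524 and 3044 CPM in plucked day 12 and 3445 and 1105 CPM in-skin. They were among 5 members called higher in both day 12 libraries, of 11 tested in both (11.8% of all genes called in 1 direction in both).

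The log2 ratios in plucked and in-skin cells were 1.94 and 2.32 for CLDN1, 2.83 and 2.10 for CLDN3, 1.48 and 1.63 for DSP, and 1.22 and 1.54 for OCLN. In single libraries the higher members were 5 of 12 in plucked day 12 (7.35%) and 7 of 11 in-skin (8.33%), where TJP1 at 1.01 and JUP at 1.05 were added. In each library 1 of these, CLDN3, had reached 20 CPM in MSLN-positive barcodes alone, so its passing the minimum already required a difference. GJA1 and PKP4 stood apart, with ratios of -0.28 and 0.13 for GJA1 and -0.12 and -0.43 for PKP4 (0.06 and -0.27 with TMM scaling). The median gene was at -0.21 and -0.22 in these comparisons. The MSLN-positive cells were deeper, with median UMI counts of 17388 and 20881 against 10456 and 12298. When thinned to 1000 UMIs, the sets were drawn again, with positivity from 1 thinned UMI, so depth was not the only change. DSP and CLDN1 were then called in both libraries. CLDN3 and OCLN lost their calls in-skin alone, at log2 ratios of 1.70 and 1.87. The in-skin calls of TJP1 and JUP ended as well, at 0.29 and 0.48. Other settings also ended these 2 calls. Among them were a mitochondrial limit of 20% (0.91 and 0.94) and positivity from 1 UMI without thinning (0.81 and 0.93). With TMM scaling, the higher share of all calls moved from 49.8% to 64.0% in plucked day 12 and from 38.2% to 49.5% in-skin.

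In the nuclei this pattern was not seen. At day 13, 0 of 12 members were called (6.1% of all genes in either direction), with CLDN1 at 262 and 264 CPM. At day 14, PKP2 was lower, at 39.9 and 147 CPM, in a set that is mostly F-KER-positive too, and F-KER-positive nuclei as a whole had 69.0 CPM. The members called were 1 of 11 in each direction, against 5.61% of all genes higher and 11.4% lower, and rested on 24 MSLN-positive nuclei.

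SHH-positive cells had less GJB6. It was 56.9 CPM in SHH-positive and 152 CPM in marker-negative barcodes of plucked day 12, and 22.4 and 78.7 CPM in-skin. The log2 ratios of GJB6 were -1.28 and -1.45. Members called lower in both libraries, GJB6 included, were 2 of 10 tested in both. Over all genes, 4.24% were called in 1 direction, higher or lower, in both. In single libraries the lower members were 2 of 12 in plucked day 12 (2.76% of all genes) and 2 of 10 in-skin (3.05%). In-skin, 1 of the 2 had reached 20 CPM in marker-negative barcodes alone. With a minimum of 50 CPM, or thinning to 1000 UMIs with positivity from 1 thinned UMI, GJB6 alone was called in both libraries. With positivity from 1 UMI and no thinning, no member was.

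Several other junction genes were lower in SHH-positive day 12 cells without reaching 2-fold. DSP was 1683 and 3044 CPM in plucked day 12 and 587 and 1105 CPM in-skin, with log2 ratios of -0.85 and -0.90. CLDN1 had ratios of -0.24 and -0.96. PKP4 and DSG2 ran the other way: PKP4 was 219 and 136 CPM in plucked and 144 and 108 CPM in-skin cells, and DSG2 was 47.5 and 24.9 CPM in plucked cells. In nuclei, 0 of 12 members were called at day 13 (3.04% of all genes in either direction). At day 14 DSG2 was higher, at 45.3 and 13.4 CPM, 1 of 12 (3.07%), and it reached 20 CPM in SHH-positive nuclei alone. GJB6 in SHH-positive nuclei was 67.8 against 72.7 CPM at day 13 and 44.3 against 67.2 CPM at day 14.

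Between F-KER-positive and marker-negative nuclei few genes of any kind were called. No member was called in both nuclear libraries, 0 of 11 against 0.673% of all genes, and 0 of 12 at day 13 (0.86% in either direction) and 0 of 11 at day 14 (2.18%), so a count of 0 does not set the members apart. PKP2 came nearest, at 43.7 and 70.6 CPM at day 13 and 69.0 and 147 CPM at day 14, with log2 ratios of -0.59 and -0.99. It was called in both when positivity required 5 UMIs. In plucked day 12 cells CLDN1 was lower in F-KER-positive barcodes, at 157 and 528 CPM (log2 ratio -1.68, -1.82 to -1.55), 1 of 12 members (5.69%). PKP4 in the same cells was 252 and 136 CPM (0.85) and JUP 242 and 373 CPM (-0.60). In the nuclei CLDN1 was 319 and 264 CPM at day 13 and 508 and 401 CPM at day 14, on the higher side. The 12 F-KER-positive in-skin cells are too few for more than their values, 185 against 349 CPM for CLDN1 and 1956 against 975 CPM for GJA1.

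**Figure D5:**
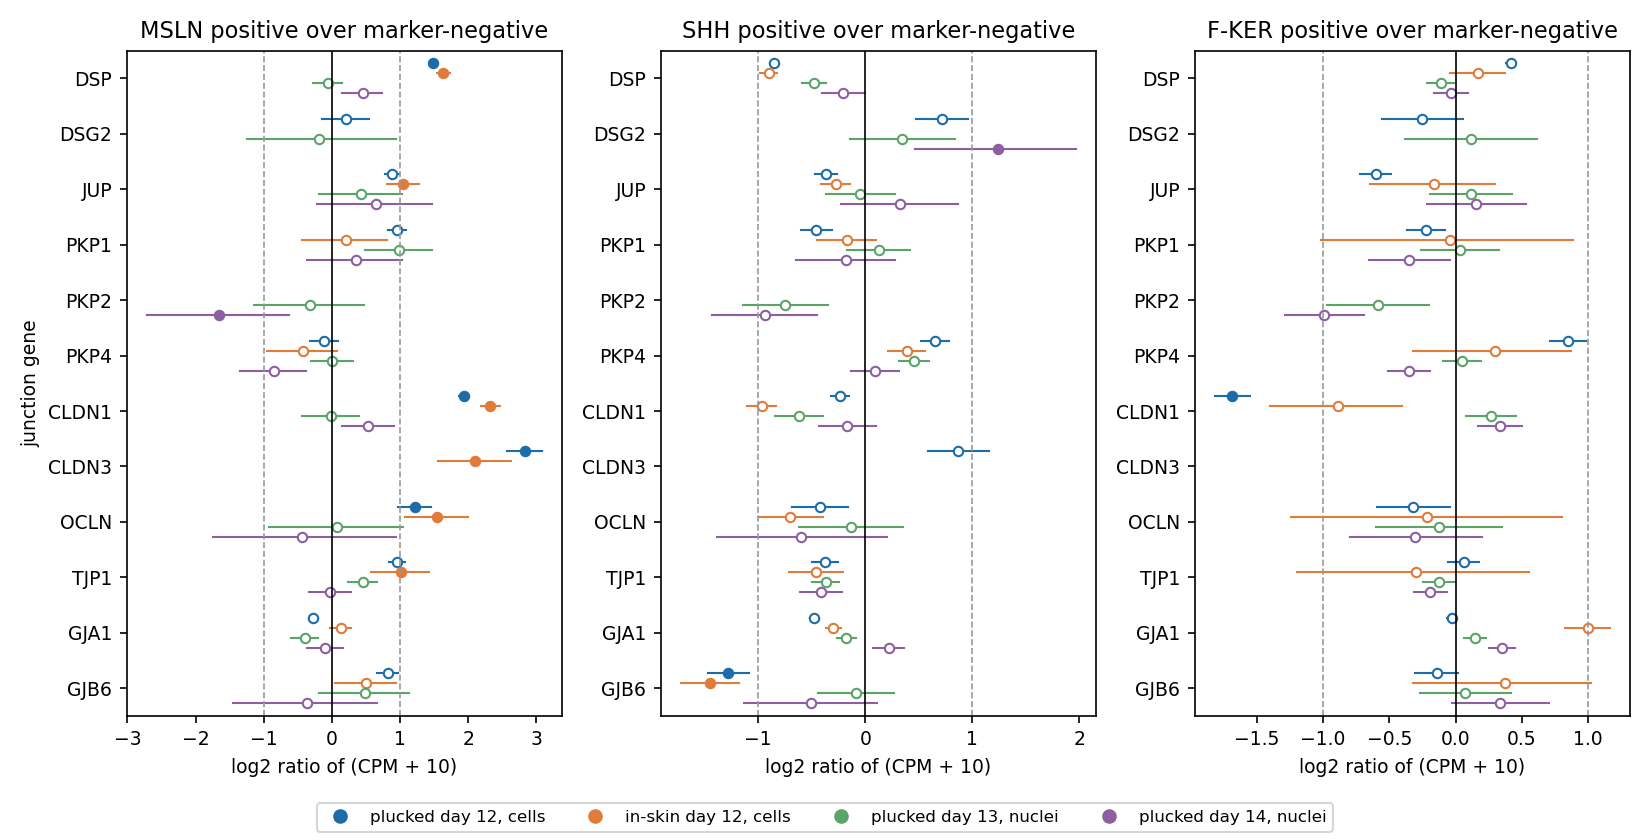
Log2 ratio of (CPM + 10) in MSLN-, SHH- and F-KER-positive over marker-negative epithelial barcodes for each described junction gene and CLDN3, by library, with Poisson 95% intervals, filled points where called and dashed lines at a 2-fold difference. In the day 12 cells CLDN1, CLDN3, OCLN and DSP lie to the right for MSLN, and GJB6 to the left for SHH; most nuclear points lie within the 2-fold lines.

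Genes that work with the members were counted from fixed lists. Over all genes, 9.86%, 12%, 8.34% and 11.4% were higher and 18%, 14.7%, 12.7% and 17% lower in epithelial than fibroblast barcodes of plucked day 12, in-skin, day 13 and day 14. Of 15 adherens junction genes 13 were found, and 6 of 12 tested were higher and 3 lower in epithelial than fibroblast barcodes of plucked day 12. The counts were 2 and 3 of 9 in-skin, 4 and 2 of 13 at day 13, and 4 and 3 of 12 at day 14. CDH1 (E-cadherin) was 239 against 21.5 CPM in plucked day 12 and 224 against 19.7 CPM in-skin, and NECTIN1, a cell adhesion molecule, was 233 against 29.3 CPM and 95.8 against 13.4 CPM. CTNNA2, an alpha-catenin, was 4.81 against 83.1 CPM and 2.27 against 24.8 CPM, and CTNNA2 and NECTIN3 were lower in epithelium in all 4 libraries.

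Of 21 tight junction partners 16 were found, with 3 higher and 1 lower of 10 tested in plucked day 12, 2 and 3 of 8 in-skin, and 6 and 1 of 13 in each nuclear library. PARD6G, a polarity protein, was 75.6 against 19.5 CPM in plucked day 12, and MPDZ, a scaffold, was 7.49 against 76.1 CPM. Of 11 desmosome and hemidesmosome partners 6 were found and tested, with 3, 3, 2 and 3 higher and 1, 0, 1 and 1 lower. PPL (periplakin) was 654 against 37.6 CPM in plucked day 12, 89.1 against 5.23 CPM in-skin, 183 against 62.8 CPM at day 13 and 216 against 63.5 CPM at day 14. DST (dystonin) was lower in epithelium in the 3 plucked libraries, for example 65.0 against 313 CPM at day 12. Of the 3 pannexins, which form channels distantly like those of connexins, PANX2 was lower in epithelium in the plucked libraries, at 0.513 against 60.5 CPM at day 12.

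Of 13 transcription factors known to act on epithelial junction genes 9 were found. GRHL3, an activator of the epidermal barrier programme in mice, was 179 against 12.0 CPM in plucked day 12 and 91.5 against 5.16 CPM in-skin, and was higher in epithelium in all 4 libraries. ZEB2, TWIST1 and ZEB1, repressors of E-cadherin in mammals, were lower in all 4, with ZEB2 at 1.89 against 951 CPM in plucked day 12. The counts were 4 higher and 4 lower of 8 tested in plucked day 12, 3 and 4 of 7 in-skin, and 3 and 3 of 6 in each nuclear library. GRHL3 and TP63 are also among the epithelial markers, and TWIST1 among the fibroblast ones. 

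The same lists were counted in the marker-positive day 12 cells. In SHH-positive cells, 4.76% of all genes were higher and 2.76% lower in plucked day 12, and 2.61% and 3.05% in-skin. Desmosome and hemidesmosome partners had 3 higher and 0 lower of 5 tested in plucked day 12, and 1 and 0 of 5 in-skin. The integrin ITGA6, part of hemidesmosomes, was higher in both, at 210 against 38.3 CPM and 84.3 against 25.5 CPM. DST (175 against 37.7 CPM) and the hemidesmosome collagen COL17A1 (127 against 41.7 CPM) were called in plucked day 12. Adherens junction genes had 0 higher and 0 lower of 9 in plucked day 12 and 0 and 2 of 7 in-skin, and tight junction partners 1 and 0 of 11 and 0 and 0 of 6. Of the transcription factors, 1 of 4 and 1 of 3 were lower and 0 higher: GRHL3 was 72.9 against 193 CPM in plucked day 12 and 22.8 against 112 CPM in-skin.

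In MSLN-positive cells, 7.4% of all genes were lower in plucked day 12 and 13.5% in-skin, beside the 7.35% and 8.33% higher. Adherens junction genes had 3 higher and 0 lower of 10, and 2 and 0 of 8. AFDN (afadin, which links nectins to actin) was 708 against 146 CPM and 374 against 89.2 CPM. Tight junction partners had 2 higher and 1 lower of 11, and 0 and 1 of 8. Desmosome and hemidesmosome partners had 1 and 1 of 5, and 0 and 2 of 5, with COL17A1 at 2.25 against 41.7 CPM and 0 against 99.9 CPM. The transcription factors had 0 higher and 1 lower of 4 and of 3, which was TP63, at 62.9 against 157 CPM and 64.6 against 202 CPM.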

How the data were processed

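The deposited values are raw UMI counts per gene and barcode, which the authors made with Cell Ranger, version 3.1.0 for the day 12 cells and 7.0.0 for the nuclei per the file headers. The submitters' processing notes name version 7.0.0 and the genome build GRCg6a for all libraries. Whether intronic reads were counted is not given in the sources used here. Per the labels' protocols, day 12 tissue was digested with Pronase into cells, and the later feathers were processed to nuclei.

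A barcode was kept if it held 500 or more UMIs from 300 or more genes, of which no more than 10% were mitochondrial. Those that passed more than 1 of the epithelial, fibroblast and endothelial gates were left out, and no doublet caller was run. The pigment cell gate was applied to the remaining barcodes and removed none from these classes. UMIs were summed per class and library and scaled to CPM over all UMIs except those of 7 globin and 13 mitochondrial genes. The call rule and its exact Poisson 95% intervals are given with the results. Computations used Python 3.11.15, numpy 2.4.6, scipy 1.17.1 and pandas 2.3.3, with TMM factors from edgeR 4.0.16 in R 4.3.3. The comparison code was checked on simulated data. For thinned shares, each barcode was drawn down to 1000 UMIs and shallower ones were left out.

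Members with at least 20 CPM in a gated class were described, and in each comparison the called members were named, up to the 10 largest in each direction, except that some members are not reported here, though counts of members include them. The members, gates, lists and tests were chosen with earlier results of these data known. Gene synonyms came from a RefSeq gene table of assembly GRCg7b, in which all 37 members were found. No sequence or coordinate was used here.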

Additional observations from a re-analysis of the deposited data

Results flagged for a closer look

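Some signals lay outside the 3 gated classes and the erythroid barcodes. Barcodes with at least 3 UMIs of the pigment cell genes PMEL, DCT, MLANA and TYRP1, outside the other gates, numbered 25, 25, 195 and 67 in plucked day 12, in-skin, day 13 and day 14. Pigment cell markers, the gate genes among them, summed to 35031, 40683, 4376 and 4224 CPM there. In epithelial nuclei of days 13 and 14 they summed to 908 and 672 CPM. Epithelial markers in the pigment cell barcodes summed to 540, 438, 2643 and 1465 CPM, so those of the nuclei were mixed. The 25 of each day 12 library are under the minimum of 50 barcodes set for such small classes and are shown after their values were seen. GJA5 was 1039 CPM there in plucked day 12, 534 CPM in-skin and 129 CPM at day 13, above its endothelial levels of 357, 27.6 and 57.7 CPM. At day 14, GJA5 was 97.7 CPM there and 291 CPM in endothelium. A GJA5 UMI was found in 12 of 25, 13 of 25, 26 of 195 and 14 of 67 of these barcodes, at median depths of 1590, 5288, 1291 and 2848 UMIs. In epithelial barcodes the share was 0.362% to 1.42%, at median depths of 3412 to 13022 UMIs. TJP1 was 682 CPM in the pigment cell barcodes of plucked day 12, from 67 UMIs, against 335 CPM in endothelium. Only in that library was TJP1 more than 2-fold above its levels in the gated and erythroid classes. Mean TJP1 UMIs per pigment cell barcode were 2.68, 0.4, 2.14 and 4.21 in the order of libraries above. Per endothelial barcode they were 2.41, 0.488, 10.3 and 3.57, at other depths.

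CLDN3 was 229 CPM in the 1395 barcodes of plucked day 12 that passed no gate and 257 CPM in the 1260 such barcodes in-skin, against at most 15.8 CPM (epithelial) and 22.3 CPM (erythroid, 4 UMIs) in the other classes. CLDN10 was 26.7 CPM in the in-skin barcodes that passed no gate, against at most 2.92 CPM in the other classes. TJP3 was 25.2 CPM in the 10167 day 14 nuclei that passed no gate, against at most 12.5 CPM.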

How the results depend on the processing

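Called member ratios were recomputed for the comparisons whose member counts are followed below. These 83 ratios gave 1127 values under the alternatives that apply to each, without the later additions named below. Calls against erythroid barcodes, and those between libraries in fibroblasts and endothelium, were not in this set. Neither were the calls in SHH- and MSLN-positive nuclei and in F-KER-positive day 12 cells. The direction was kept in 1126, and the call in 1054. The 1 that turned was GJA1 in endothelial over epithelial barcodes in-skin, at 0.58 with barcodes that pass more than 1 gate kept. That setting and a minimum of 50 CPM each ended 19 calls. The counts of members moved by over 1.5 times as follows. Members higher in epithelial than fibroblast barcodes were 3 in all 4 libraries, 6 with day 13 left out (GJB6, DSP and OCLN added) and 7 in the day 12 libraries alone, where JUP was added too. Members lower in epithelial barcodes went from 0 to 1 (GJC3) in the day 12 libraries alone. Members higher in endothelial barcodes in all 4 libraries went from 1 to 0 with a 50 CPM minimum, a 20% mitochondrial limit or barcodes of more than 1 gate kept. They went to 2 (CLDN5 added) without barcodes over 2 times the class median, with day 13 left out, and at day 12 alone. The day 14 against day 13 count in epithelium went from 0 to 1 with TMM scaling. The MSLN count went from 5 to 2 when thinned. The SHH count went from 2 to 1 with a 50 CPM minimum or thinning and to 0 with positivity from 1 UMI. The F-KER count went from 0 to 1 with positivity from 5 UMIs. For each of these the cause was not tested, apart from the settings that use fewer libraries. Leaving out the endothelial barcodes that pass the pigment cell gate kept the count at 1 (GJA5). That alternative and those without 1 or both nuclear libraries were added after the data were seen. No paired analysis was possible because each group is 1 library, and for the same reason no replicate could be left out. Depth limited the small classes most: 8 UMIs stood behind GJA5 in in-skin endothelium.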

Other observations

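Barcodes of the day 12 libraries that passed no gate and had at least 2 CLDN3 UMIs numbered 58 in plucked feathers and 108 in-skin, and held 95.2% and 96.0% of the CLDN3 UMIs of the barcodes that passed no gate. They were picked by CLDN3, so its level, 1342 and 1238 CPM, is a description. CLDN1 was 1704 CPM in the plucked and 1398 CPM in the in-skin set, against 569 and 339 CPM in epithelium. DSP was 5689 and 2265 CPM in these sets, against 3295 and 1033 CPM in epithelium. CLDN10, 57.0 and 126 CPM, OCLN, 130 and 196 CPM, and TJP3, 49.0 and 36.2 CPM, were also above their epithelial levels in both. KRT18, a keratin of simple epithelia in mammals, was 2908 and 2509 CPM, and EPCAM, an epithelial surface protein, 1791 and 1582 CPM. KRT5 and GATA3, the genes of the epithelial gate, were 25.3 and 26.9 CPM in the plucked set, where the epithelial levels were 636 and 573 CPM; the gate fixes part of that difference. Some of these traits were shared with the MSLN-positive epithelial cells described above. In those cells CLDN1 and DSP were higher than in the sets picked by CLDN3, in both day 12 libraries. CLDN3 and OCLN there were also above their levels in all epithelial barcodes. The barcodes picked by CLDN3 were chosen after their values were seen, and no cell type is named for them.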
